A study of Mus musculus with 6 samples.

Results

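The miR-200 family, miR-203 and miR-205 are miRNAs best known from epithelia, and 10 of their mature forms were followed here in mouse embryonic stem cells (ESCs). They were taken by name: both arms of miR-200a and miR-200b, the 3p arms of miR-200c, miR-141 and miR-429, both arms of miR-203 and the 5p arm of miR-205, which is 10 of the 1907 mature miRNAs in the count table. The small RNA libraries came from 2 C57BL/6 ESC lines named RB18 and RB20. Both lines were kept in 3 media, which gives 2 libraries per medium, and each library pooled 3 cultures. All cells received LIF at 1000 U/ml. Serum cultures had 15% serum and no inhibitor. The serum-free N2B27 medium 2i held 1 µM PD0325901, an inhibitor of the kinase MEK, and 3 µM CHIR99021, an inhibitor of GSK3. R2i kept 1 µM PD0325901 and replaced CHIR99021 by 10 µM SB431542, an inhibitor of TGF-β type I receptors. The lines had been derived in R2i and part of them was then passaged in 2i or serum without feeders, so every group shares that origin. Only the 2i and serum cells had changed medium, so where R2i is compared, medium and this transfer cannot be told apart. A medium is thus represented by the same pair of lines. The spread between its libraries holds differences of line, culture and library, which cannot be told apart. 2i and R2i together are called the ground state below.

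In epithelial cells the miR-200 family holds down the transcription factors Zeb1 and Zeb2, which silence E-cadherin, and these factors in turn repress the miR-200 genes. The family is transcribed as 2 clusters, and its mature forms fall into groups by the seed, the bases near the 5′ end that pair with targets. miR-203 is known for ending proliferation in the skin as cells leave the basal layer, and miR-205 is a miRNA of basal and stratified epithelia that can also target the Zeb mRNAs.

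The family's kinship can be read from the sequences, shown here because the sums and shares below are taken by cluster and by seed. They are the mature sequences of RefSeq on GRCm38.p6, in which all 10 names were found, written 5′ to 3′ with the seed (bases 2 to 8) in capitals.
mmu-miR-200b-3p: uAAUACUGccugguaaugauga
mmu-miR-429-3p: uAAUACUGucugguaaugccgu
mmu-miR-200c-3p: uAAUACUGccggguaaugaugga
mmu-miR-200a-3p: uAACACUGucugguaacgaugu
mmu-miR-141-3p: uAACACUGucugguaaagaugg
mmu-miR-200b-5p: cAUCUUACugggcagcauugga
mmu-miR-200a-5p: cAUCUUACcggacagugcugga
mmu-miR-203-3p: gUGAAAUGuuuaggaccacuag
mmu-miR-203-5p: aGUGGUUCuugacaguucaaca
mmu-miR-205-5p: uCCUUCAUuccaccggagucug

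The 5 main (3p) arms of the family carried 2 seeds. AAUACUG was shared by miR-200b-3p, miR-429-3p and miR-200c-3p, and AACACUG by miR-200a-3p and miR-141-3p. The 2 5p arms shared AUCUUAC, while miR-203-3p, miR-203-5p and miR-205-5p had a seed each that no other miRNA matched to RefSeq had, out of 1623 matched. With positions counted from 1 at the 5′ end, miR-200b-3p and miR-200c-3p differed by U11G and A22G over the 22 compared bases, and miR-200a-3p and miR-141-3p by C17A and U22G. Pairs this close can exchange reads where a mapping allows mismatches, so a level is less certain within such a pair than for the pair together.

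The 2 seeds do not follow the 2 clusters. The cluster of miR-200b, miR-200a and miR-429 spans 1846 bases on the minus strand (GRCm38, chr4:156053905-156055750) in an intron of Ttll10 and inside the noncoding transcript Gm13648, whose exon overlaps the miR-429 hairpin. In transcript order it holds miR-200b-3p (chr4:156055685-156055706), miR-200a-3p (chr4:156054911-156054932) and miR-429-3p (chr4:156053916-156053937). The cluster of miR-200c and miR-141 spans 477 bases on the minus strand (chr6:124717914-124718390) in an intron of the antisense gene Gm15884, between Phb2 and Ptpn6, with miR-200c-3p (chr6:124718324-124718346) ahead of miR-141-3p (chr6:124717917-124717938). miR-203-3p (chr12:112130927-112130948, plus strand) is intergenic, 3321 bases beyond Aspg and 15253 bases before Kif26a. miR-205-5p (chr1:193507503-193507524, minus strand) overlaps an exon of the lincRNA 4631405K08Rik. RefSeq also lists miR-203b on the minus strand over the miR-203 hairpin, and the strand setting of the counting is not given in the sources used here, so reads of both strands cannot be told apart at miR-203. No miR-203b form was among the counted names.

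Libraries held between 1041858 counts (R2i RB18) and 3593356 counts (R2i RB20), and 8 of 8 miRNAs listed as ESC markers, the miR-290 and miR-302 groups, were measured in them at a summed 267000 to 351850 CPM (counts scaled to a common library total, with edgeR's TMM factors). The largest part of that sum was miR-295-3p, at 170960 to 258120 CPM. The 10 forms took 1.20% and 1.25% of all counts in serum RB18 and RB20. Their share was 0.57% and 0.58% in 2i, and R2i had 0.57% and 0.77%. By mean share, miR-141-3p ranked 46th of all miRNAs, miR-205-5p 51st, miR-200b-3p 67th and miR-200a-3p 69th. miR-429-3p was 120th and was followed by miR-200c-3p, miR-203-3p (253rd), miR-200a-5p (290th) and miR-200b-5p (398th). miR-203-5p was counted 2 times in serum RB18 and not in the other 5 libraries. Its count is within the 3 counts that a count of 0 allows, and it was not tested. The other 9 forms were above the filter's level (4.65 CPM by library total) in 6 of 6 libraries, so none entered the test through its high group alone.

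**Figure D1:**
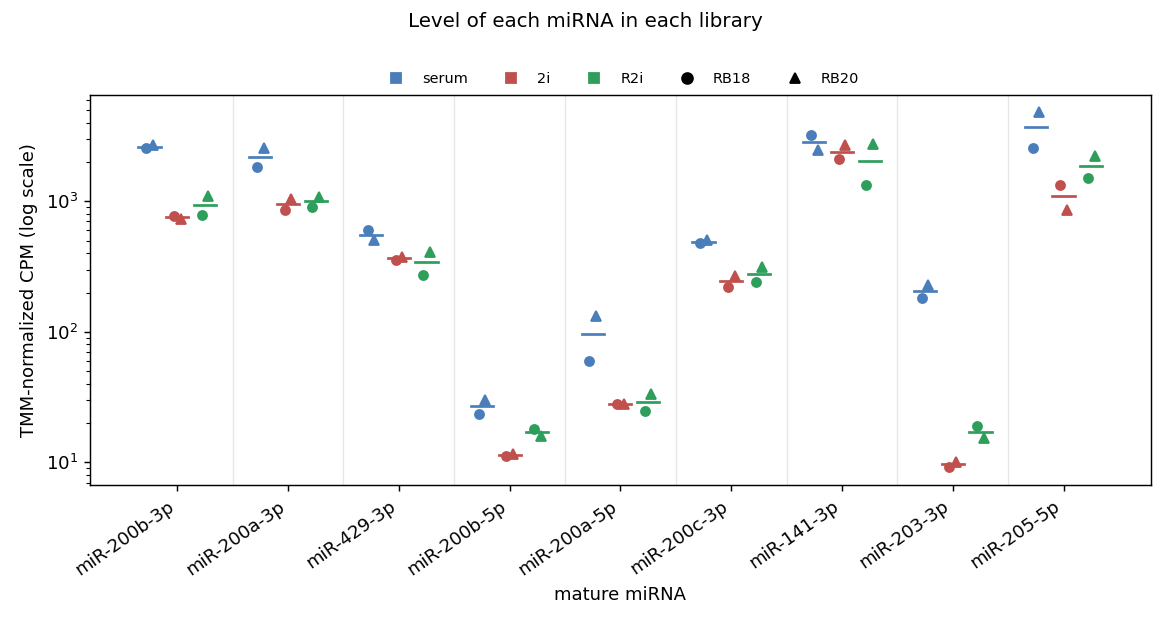
Levels of the 9 tested forms, in TMM-normalized CPM on a log axis, with a circle for RB18, a triangle for RB20, a bar for the mean of each medium, and colours for serum, 2i and R2i. The serum libraries lie above the 4 ground-state libraries for 8 forms, with the widest gap at miR-203-3p, while the media overlap at miR-141-3p.

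The first question was how the ground-state media differed from serum. Below, a level is a CPM value after edgeR's TMM scaling, a difference is edgeR's log2 fold change against serum with its standard error (SE), and a form is called lower where the quasi-likelihood test over all 571 miRNAs that passed the filter gave a Benjamini-Hochberg adjusted p below 0.01 and the fold exceeded 2. In 2i, 6 of 9 forms were called lower, against 17.3% of all tested miRNAs (99 of 571). In R2i, 4 of 9 were lower, against 15.6% (89 of 571), and for the mean of both media 5 of 9, against 20.0% (114 of 571). None was called higher. All 9 estimates were negative in each of these comparisons, with a median log2 difference of -1.24 in 2i, -0.98 in R2i and -1.17 for both, where the medians over all tested miRNAs were -0.03, -0.07 and -0.02. The comparisons share the serum libraries and are set side by side only. Both serum libraries exceeded all 4 ground-state libraries for 8 of 9 forms, compared with 32.4% of all tested miRNAs (185 of 571). The forms are not independent of each other. Those of miR-200b, miR-200a and miR-429 come from the same cluster, and both arms of the miR-200a and miR-200b hairpins were counted. Outside that cluster, the forms called lower were miR-203-3p in each comparison and miR-205-5p in 2i and for both media.

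How many forms were called depended on single libraries. Leaving out 1 library left its medium with 1 library. In 2i fewer forms were called whichever library was left out. In R2i and for both media, fewer were called without some libraries, serum RB20 among them. Fewer of all tested miRNAs were called lower in each of these fits too. The only estimate against serum that changed sign was miR-141-3p in 2i, at 0.047 without serum RB18. With the cell line as a replicate block, 4 forms were called lower in 2i, 3 in R2i and 4 for both media. Beside them stood 88, 79 and 104 of 571 miRNAs called lower.

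**Figure D2:**
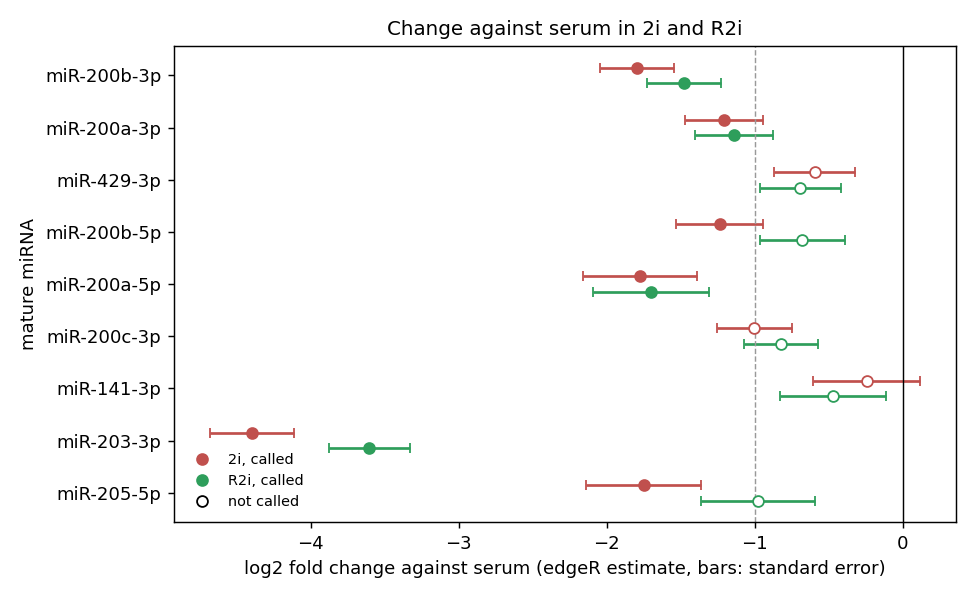
Log2 fold change against serum for each of the 9 forms in 2i and in R2i (points, with bars for the edgeR standard error). Filled points were called lower and open points were not; the dashed line marks a 2-fold decrease. miR-203-3p lies apart at -4.40 and -3.60, and miR-141-3p lies nearest to 0.

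miR-203-3p, the form that restrains proliferation in epidermis, had the largest difference of the 9. It stood at 182 CPM (332 counts) in serum RB18 and 229 CPM (462 counts) in serum RB20. In 2i it stood at 9.23 CPM (19 counts) in RB18 and 10.1 CPM (33 counts) in RB20, and in R2i at 18.9 CPM (22 counts) and 15.4 CPM (54 counts). Every serum value was thus far above every ground-state value, and both R2i values were above both 2i values. The log2 difference from serum was -4.40 (SE 0.28) in 2i and -3.60 (SE 0.27) in R2i, with edgeR adjusted p-values of 6.62e-05 and 0.000164. Ordered from the most negative estimate, miR-203-3p was 8th of 571 in 2i and 6th in R2i. Each line showed it alone: the log2 fold was -4.30 in 2i and -3.27 in R2i for RB18, and -4.51 and -3.89 for RB20. It was called in both media under each of the 12 alternative settings run, with log2 differences of -4.22 to -4.48 in 2i and -3.43 to -3.74 in R2i.

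miR-200b-3p, the first form of the chromosome 4 transcript, came next in steadiness. Its level was 2536 and 2696 CPM in serum (RB18 and RB20), 771.8 and 737 CPM in 2i, and 786 and 1089 CPM in R2i. The lines stood close together in serum and in 2i, and the media did not overlap with serum. It fell by 1.79 on the log2 scale in 2i (SE 0.25, edgeR adjusted p = 0.000641) and by 1.48 in R2i (SE 0.25, adjusted p = 0.00188). The call was lost without 2i RB20 in the 2i comparison (log2 difference -1.76) and without R2i RB18 in the R2i comparison (-1.28). It stood in the other 11 of 12 settings in each comparison.

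miR-200a-3p, from the same transcript but with the other seed, was lower by less. It measured 1836 and 2548 CPM in serum, 860.3 and 1037 CPM in 2i, and 911 and 1081 CPM in R2i. Serum was again above all other libraries, and 2i and R2i overlapped. The log2 difference was -1.21 in 2i (SE 0.27, edgeR adjusted p = 0.00644) and -1.14 in R2i (SE 0.26, adjusted p = 0.00939). Both calls were lost on leaving out any library but serum RB18, with log2 differences of -0.95 to -1.35 in 2i and -0.88 to -1.27 in R2i, and also with only the compared media in the fit (-1.21 and -1.09). The call for both media together, at -1.17 (SE 0.22, adjusted p = 0.00264), was lost without serum RB20 (-0.92) or R2i RB18 (-1.11).

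miR-429-3p closes that transcript and carries the seed of miR-200b-3p. It measured 600.4 and 500.5 CPM in serum, 356 and 373 CPM in 2i, and 271 and 409 CPM in R2i. The serum values were the highest here too, but the gap to R2i RB20 was small. Neither difference was called, with log2 estimates of -0.59 (SE 0.27, edgeR adjusted p = 0.106) in 2i and -0.69 (SE 0.27, adjusted p = 0.081) in R2i.

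The 5p arms of miR-200a and miR-200b are the minor strands of their hairpins. miR-200a-5p measured 59.7 and 132 CPM in serum, 28.2 and 28.1 CPM in 2i, and 24.9 and 33.2 CPM in R2i. The serum lines differed 2.22-fold, while the ground-state libraries lay close together below both. The log2 difference was -1.77 in 2i (SE 0.39, edgeR adjusted p = 0.00622) and -1.70 in R2i (SE 0.39, adjusted p = 0.00875). Both calls were lost on leaving out any library but serum RB18, at -1.08 to -1.77 in 2i and -1.01 to -1.95 in R2i, and also with only the compared media in the fit (-1.77 and -1.65). The R2i call was lost as well with the line as a replicate block (-1.68) and with limma on the authors' log2 values (-1.55). For both media together, the call at -1.74 (SE 0.32, adjusted p = 0.0023) was lost without serum RB20 (-1.04).

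miR-200b-5p, counted 21 to 61 times per library, measured 23.5 and 30.2 CPM in serum, 11.2 and 11.6 CPM in 2i, and 18.0 and 16.0 CPM in R2i. Each medium held its own range, in the order serum, R2i, 2i. The log2 difference was -1.24 in 2i (SE 0.29, edgeR adjusted p = 0.00952), a call that stood in 1 of the 12 alternative settings. It was lost when any 1 library was left out (-1.04 to -1.33), with the line as a replicate block (-1.24), with DESeq2 (-1.20), with library totals (-1.20), with no filter (-1.18) and with only the compared media in the fit (-1.24). In R2i it was -0.68 (SE 0.29, adjusted p = 0.1) and was not called. The 5p arm made up 2.64% to 4.94% of miR-200a and 0.92% to 2.24% of miR-200b counts.

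miR-200c-3p, from the chromosome 6 transcript, measured 480.0 and 502 CPM in serum, 220.0 and 269 CPM in 2i, and 240.1 and 314 CPM in R2i. Serum was above the rest with little spread, yet the log2 differences of -1.003 (SE 0.25, edgeR adjusted p = 0.0125) in 2i and -0.82 (SE 0.25, adjusted p = 0.0319) in R2i missed the call. For both media together the adjusted p was 0.00763, at a log2 difference of -0.91 (SE 0.21) that is under the 2-fold limit.

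miR-141-3p, the most abundant of the 10 by mean share, was the one form without separation. It measured 3227 and 2449 CPM in serum, 2117 and 2683 CPM in 2i, and 1343 and 2753 CPM in R2i. RB18 was highest in serum and RB20 was lowest there, so the 3 media overlapped. The log2 difference was -0.24 in 2i (SE 0.36, edgeR adjusted p = 0.611) and -0.47 in R2i (SE 0.36, adjusted p = 0.34). In RB18 alone it was -0.61 in 2i and -1.27 in R2i, and in RB20 alone 0.13 and 0.17. Its 5p arm, not among the 10 forms and 1.70% to 4.50% of miR-141 counts, had log2 differences of -0.79 in 2i and -0.91 in R2i and was not called.

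miR-205-5p, of basal epithelia, measured 2539 and 4800 CPM in serum, 1328 and 855 CPM in 2i, and 1510 and 2218 CPM in R2i. The lines differed 1.89-fold in serum, where RB20 was higher, and in 2i RB20 was the lower one, at 0.64 of RB18. The log2 difference was -1.75 in 2i (SE 0.39, edgeR adjusted p = 0.00701) and -0.98 in R2i (SE 0.38, adjusted p = 0.0778), so only the 2i difference was called; the difference between R2i and 2i is given below. The 2i call was lost without serum RB20, 2i RB20 or either R2i library (-1.22 to -1.75), with only the compared media in the fit (-1.75) and with the line as a replicate block (-1.68). The call for both media together (-1.36, SE 0.32, adjusted p = 0.00784) was lost without serum RB20 (-0.83), 2i RB20 (-1.22), R2i RB18 (-1.22) or R2i RB20 (-1.52), with the block (-1.32) and with limma on the authors' log2 values (-1.28). The 3p arm, 1.51% to 2.64% of miR-205 counts, went with it at -2.00 (SE 0.57, adjusted p = 0.0205) in 2i and -0.94 in R2i and was not called.

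**Figure D3:**
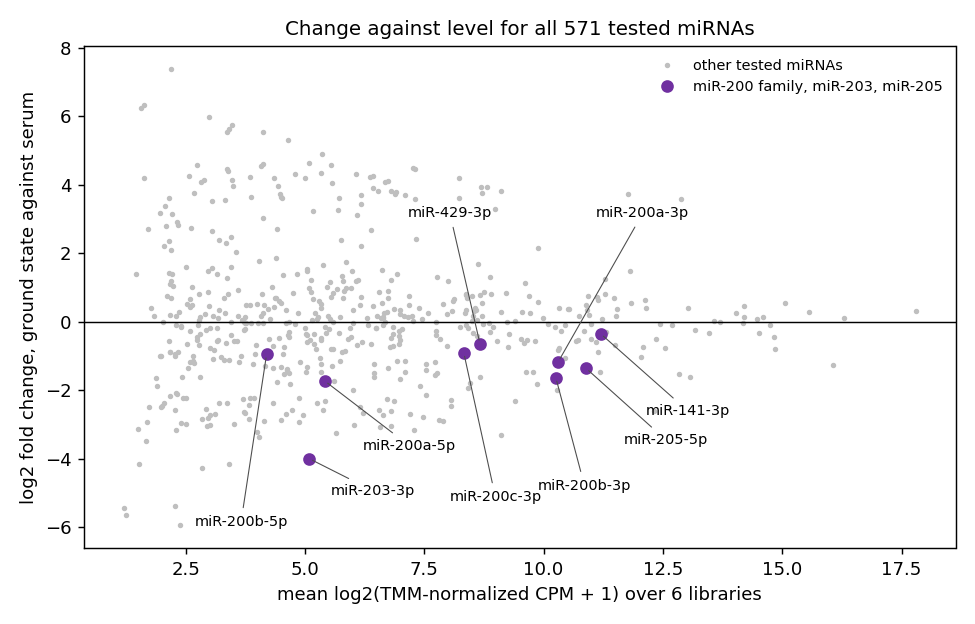
Log2 fold change of the ground state (mean of 2i and R2i) against serum, plotted for all tested miRNAs against their mean log2(TMM-normalized CPM + 1) over the 6 libraries. The 9 forms (large points, named) all lie below 0, from -0.36 for miR-141-3p to -4.00 for miR-203-3p, among grey points of both signs.

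The next question was whether R2i and 2i differed for these miRNAs. These media share PD0325901, and SB431542 in R2i stands in place of CHIR99021 in 2i. edgeR called none of the 9 forms and 0.35% of all tested miRNAs (2 of 571). DESeq2 called none of the 9 and 14 of 571. With so few calls among all miRNAs, 0 of 9 does not set these forms apart. At an unadjusted p below 0.05 there was 1 form, miR-203-3p, beside 104 of 571 miRNAs. miR-203-3p had a log2 difference of 0.79 (R2i over 2i, SE 0.29, edgeR adjusted p = 0.206), from 2i counts of 19 and 33 and R2i counts of 22 and 54. miR-205-5p had 0.77 (adjusted p = 0.326) and miR-200b-5p 0.56, while miR-200a-3p and miR-200a-5p were both at 0.07. Only miR-141-3p and miR-429-3p had negative estimates, of -0.23 and -0.10, and both turned positive without R2i RB18 (0.16 and 0.13). miR-200a-3p and miR-200a-5p turned negative without R2i RB20 (-0.059 and -0.18), as did miR-200c-3p (-0.029), and miR-200a-3p also without 2i RB18 (-0.047).

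Summed by cluster, the chromosome 4 3p arms reached 4973 and 5745 CPM in serum RB18 and RB20, 1988 and 2147 CPM in 2i, and 1968 and 2579 CPM in R2i. The serum mean was 2.59 times that of 2i and 2.36 times that of R2i, and each line gave a ratio between 2.23 and 2.68. The chromosome 6 3p arms reached 3707 and 2951 CPM in serum, 2337 and 2952 CPM in 2i, and 1583 and 3067 CPM in R2i. That sum was 1.59 and 2.34 times higher in serum than in 2i and R2i for RB18, but 1.00 and 0.96 times for RB20. The chromosome 4 sum thus separated serum from the ground state in both lines, and the chromosome 6 sum, most of it miR-141-3p, did so in RB18 alone. The sums were not tested, since an exact permutation test of 2 libraries against 2 cannot go below p = 0.333 (two-sided).

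Shares within the family do not depend on how libraries are scaled. In serum the chromosome 6 forms held 42.7% (RB18) and 33.9% (RB20) of the counts of the 5 3p arms. They held 54.0% and 57.9% in 2i, while R2i had 44.6% and 54.3%. All ground-state shares were above both serum shares, although R2i RB18 (95% Wilson interval 43.1% to 46.1%) and serum RB18 (41.9% to 43.5%) had overlapping intervals, which cover counting error only. By seed, AACACUG took 58.3% and 57.5% in serum but 68.8% and 72.9% in 2i, with R2i at 63.5% and 67.9%. The 3 media did not overlap here, with 2i highest.

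Within single transcripts the balance moved as well. miR-429-3p made up 19.1% and 15.7% of miR-429-3p plus miR-200b-3p in serum but 31.6% and 33.6% in 2i, with R2i at 25.6% and 27.3%. These share a seed and a transcript, and the 3 media kept apart in both lines. miR-200a-3p made up 42.0% and 48.6% of miR-200a-3p plus miR-200b-3p in serum but 52.7% and 58.5% in 2i, with R2i at 53.7% and 49.8%, again lowest in serum, with 2i and R2i overlapping. miR-141-3p made up 87.1% and 83.0% of the chromosome 6 pair in serum but 90.6% and 90.9% in 2i, with R2i at 84.8% and 89.8%, so R2i overlapped with serum. No test was run on these shares.

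**Figure D4:**
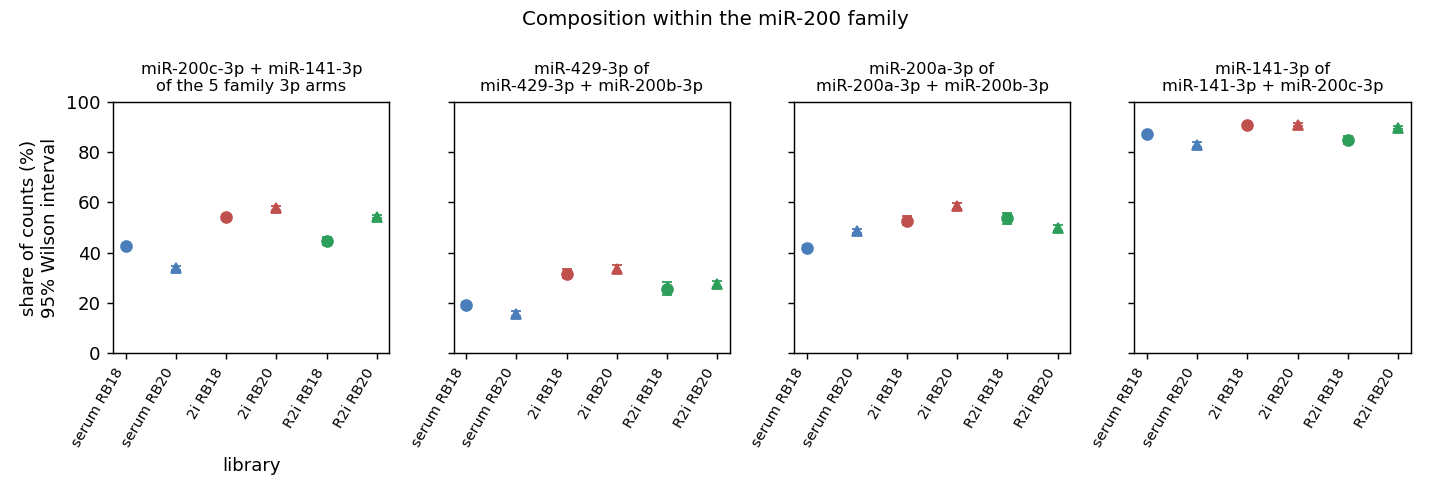
Shares of counts within the miR-200 family in each library (%, from 0 to 100), with 95% Wilson intervals: circles are RB18, triangles RB20, and colours mark serum (blue), 2i (red) and R2i (green). The miR-429-3p share of miR-429-3p plus miR-200b-3p runs from 15.7% to 19.1% in serum and from 31.6% to 33.6% in 2i, with R2i between them.

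Of 8 other miRNAs listed as epithelial, 7 were tested. None was called in 2i, where 17.3% of all tested miRNAs were lower. In R2i 1 was lower, where the share of all was 15.6%: miR-31-5p (log2 difference -1.76, edgeR adjusted p = 0.00103), which was also the 1 called for both media together (-1.24), where the share was 20.0%. Their median log2 differences were 0.05 in 2i, -0.06 in R2i and 0.10 for both. The abundant miR-182-5p, at 58921 to 104590 CPM, had 0.26 in 2i and -0.06 in R2i. miR-183-5p, its neighbour on the same transcript, had 0.70 and -0.12, and miR-96-5p 1.14 and 0.46. In 2i the estimates were negative for miR-31-5p (-0.72), miR-194-5p (-0.24) and miR-375-3p (not called, edgeR adjusted p = 0.0259), the last with 11 and 22 counts in serum against 1 and 2 in 2i, and miR-192-5p was at 0.05.

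miRNAs listed as mesenchymal, 13 of 14 tested, had 4 lower and 0 higher in 2i, in R2i and for both, beside 17.3%, 15.6% and 20.0% lower among all tested miRNAs, with median log2 differences of 0.10, 0.28 and 0.33. The 4 were miR-21a-5p, miR-22-3p, miR-155-5p and miR-10a-5p. Their list's summed level was 34978 to 42321 CPM in serum, 13067 to 13396 CPM in 2i and 12180 to 13914 CPM in R2i. Most of the serum sum was miR-21a-5p (17074 and 17084 CPM in RB18 and RB20) and miR-22-3p (22373 and 14113 CPM). The sum therefore follows these miRNAs more than the list, whose medians were above 0. miR-143-3p, a miRNA of smooth muscle and fibroblasts, had 1.02 in 2i and 0.44 in R2i and was not called. Neither list was chosen independently of earlier results on these libraries.

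Of the 8 ESC markers, 1 was called higher in 2i (miR-302b-3p), beside 96 of 571 miRNAs. In R2i 3 were called higher (miR-302a-3p, miR-302b-3p and miR-302d-3p), beside 86 of 571. No marker of the miR-290 group was called. Markers of other cell types moved with the medium in part. The muscle markers (miR-1a, miR-133a and miR-206 forms, 2 of 3 tested, both called lower) summed to 46.6 to 79.4 CPM in serum, 0.31 to 0.49 CPM in 2i and 4.003 to 7.72 CPM in R2i. The hepatocyte miRNA miR-122-5p was counted 5 and 7 times in serum, against 3 and 6 in 2i with R2i at 0 and 3, and did not pass the filter. Blood markers (5 listed, with miR-223-3p at 0 in all 6 libraries) summed to 2525 to 2839 CPM in serum, 1796 to 4789 CPM in 2i and 325 to 745 CPM in R2i. Most of that sum was miR-142a-5p, called lower in R2i (log2 difference -2.43), while miR-451a was called higher in both media, with 0 and 3 counts in serum against 26 and 27 for 2i and 22 and 66 for R2i. The 5 fibroblast and mesenchyme markers, which the mesenchymal list also holds, had their lowest sum in serum, at 1431 to 2046 CPM. It was 3329 to 3651 CPM in 2i and 2414 to 2422 CPM in R2i, with 0 of 4 tested called. Most of that sum was miR-143-3p, at 1317 and 1877 CPM in serum. miR-199a-3p was lowest in serum too, while miR-145a-5p and miR-199a-5p overlapped between media, and miR-214-3p had at most 6 counts. Endothelial markers (2) lay at 634 to 1143 CPM, 655 to 762 CPM and 759 to 765 CPM, and neuronal markers (3) at 909.8 to 1077 CPM, 773 to 917 CPM and 821 to 919 CPM, in serum, 2i and R2i. The part of other cells in the serum levels of miR-200, miR-203 and miR-205 was not tested, and in pooled cultures fewer cells of a type and less RNA per cell cannot be told apart.

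The miRNAs whose profile over the 6 libraries was most like that of each unit were found by Pearson's r on log2(CPM + 1), given as a description over 6 libraries in which medium and line are shared. For miR-203-3p these were miR-466b-5p (r = 0.998), miR-669a-3p (0.997) and miR-467c-5p (0.996). The chromosome 4 sum was nearest to miR-466h-5p (0.989), miR-669o-5p (0.987) and miR-466n-5p (0.984). miR-466, miR-467 and miR-669 forms come from many near-identical copies, so reads could be split among them. The chromosome 6 sum was nearest to miR-125b-1-3p (0.919), miR-500-5p (0.918) and miR-296-5p (0.888), and miR-205-5p to miR-466o-3p (0.970), miR-181a-5p (0.958) and miR-1968-5p (0.951).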

How the data were processed

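Small RNA was sequenced from ESC pools, 1 library per line and medium. The authors deposited raw read counts per mature miRNA and a table of log2 values. The deposited log2 values equalled log2(count/size factor + 1) to within 0.005. The submitters' processing notes name FastQC 0.11.5, cutadapt 1.3, Bowtie 1.1.2, featureCounts 1.5 and mm10. Mismatch, multi-mapping and strand settings are not given in the sources used here, and these decide how reads of near-identical forms are shared out.

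Counts were tested in edgeR 4.0.16 (R 4.3.3): filterByExpr with minimum count 10 and minimum total 15, TMM scaling, quasi-likelihood fits with 1 coefficient per medium over all 6 libraries, and Benjamini-Hochberg adjustment over 571 miRNAs (common biological variation 24.6%). On simulated counts, 93.3% of 4-fold changes were recovered when 2i was set against serum and 92.3% with R2i in its place (195 changed among 558 tested). For R2i against 2i it was 93.5% (200 changed among 560 tested). The simulation gave all miRNAs the same spread and had no difference between lines. Every tested form but miR-203-3p had an estimate against serum below 4-fold, and recovery of such smaller changes was not simulated. Same-numbered lines pair the samples because they are the same cell line; RB20 minus RB18 differences correlated at 0.21 (serum and 2i), -0.13 (serum and R2i) and 0.25 (2i and R2i). Libraries are pools of cultures of 2 lines, so p-values rest on the spread between libraries within a medium. In that spread line, culture and library cannot be told apart. Levels are given for each library, and counts of 0 allow up to 3 counts (0.83 to 2.88 CPM). Alternatives were DESeq2 1.42.0, library totals, no filter, the line as block, a limma 3.58.1 fit of the authors' log2 table, only the media compared, other call limits, and each library left out. The members and the lists (other epithelial, mesenchymal, ESC and other cell type markers) were chosen with earlier results of these data known. The text names every member, the called or abundant forms of the epithelial and mesenchymal lists, and the 3 most similar profiles per unit. Loci come from RefSeq and GENCODE on GRCm38.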

Additional observations from a re-analysis of the deposited data

Results flagged for a closer look

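miR-141-3p had log2 folds of opposite sign in the 2 lines, with those of RB20 small. From serum to 2i RB18 had a log2 fold of -0.61 and RB20 one of 0.13, and the lines differed by 0.74. From serum to R2i RB18 had -1.27 and RB20 had 0.17, and the lines differed by 1.43. These differences were not tested, since each line had 1 library per medium. The miR-141-3p values behind them are 3227 CPM in serum RB18 and 2449 CPM in serum RB20. Without a change of sign, the lines also differed in size of fold for forms called in 2i. From serum to 2i miR-205-5p had -0.935 in RB18 and -2.49 in RB20, and miR-200a-5p had -1.08 and -2.24. These were not tested either.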

How the results depend on the processing

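With only the compared media in the fit, 2 of 9 forms were called lower in 2i (6 as reported), beside 90 of 571 miRNAs. In R2i 2 were called lower (4 as reported), beside 74 of 571. That design has fewer libraries. At an adjusted p below 0.05 with no fold limit, 8 rather than 5 were called for both media together. That limit is loose: in this comparison 329 of 571 miRNAs had an unadjusted edgeR p below 0.05, in either direction. How many of all miRNAs passed the adjusted limit was not counted, so the 8 cannot be set against a share of all. Leaving out any 1 library lowered the number of called forms in 2i. In R2i and for both media, leaving out some libraries did so. Fewer of all tested miRNAs were called lower in these fits too. The cause of the losses beyond having fewer libraries was not tested. With the line as a replicate block 4, 3 and 4 were called, beside 88, 79 and 104 of 571 miRNAs called lower. For R2i against 2i, 0 of 9 were called with DESeq2 (14 of 571 miRNAs), library totals (3 of 571) and no filter (25 of 1233). The same held with limma (2 of 571), the block (0 of 571) and only the compared media (0 of 571). Estimates changed sign only on leaving out a library: miR-141-3p in 2i against serum ranged from -0.43 to 0.047, and in R2i against 2i miR-200a-3p ranged from -0.059 to 0.21, miR-200a-5p from -0.18 to 0.20, miR-200c-3p from -0.029 to 0.34, miR-141-3p from -0.84 to 0.16 and miR-429-3p from -0.43 to 0.13. Scaling by library totals moved the median of all miRNAs in R2i against serum from -0.07 to 0.03; all 9 forms stayed negative against serum under that scaling and with DESeq2. Low counts limit miR-203-3p in 2i (19 and 33 counts) and miR-200b-5p (21 to 61).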
